A study of Mus musculus with 4 samples.

Results

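Transcript signal of protein kinase C isoforms was measured on 4 Affymetrix arrays. The cells came from mouse bone marrow through a Lin- c-Kit+ Sca-1+ gate (KLS), which is enriched for blood stem cells and multipotent progenitors. The 8 genes Prkca, Prkcb, Prkcd, Prkce, Prkch, Prkci, Prkcq and Prkcz were taken from 19938 genes that have a probe set of their own, together with all 10 probe sets that carry one of these symbols alone. A probe set is a group of short array probes summarised as a single value. There were 2 arrays of Klf7-/- cells (knockout) and 2 of Klf7+/+ cells (wild type). All cells had a C57Bl/6 background and came, per the series design, from chimeras made with fetal liver, whose marrow mixed the 2 genotypes. The number and age of the mice, the deleted part of Klf7, and whether replicates came from separate animals are not given in the sources used here. The spread between replicates, and with it every p, may therefore be technical.

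Protein kinase C enzymes are serine and threonine kinases that relay signals from the cell membrane. Receptors activate phospholipase C, which releases calcium through inositol trisphosphate and leaves diacylglycerol in the membrane. Conventional isoforms respond to calcium and diacylglycerol. The class called calcium-independent here responds to diacylglycerol alone. Atypical isoforms respond to neither, so they too are independent of calcium, and act through protein partners. In blood cells, isoforms of the family act in T cell and B cell receptor signalling and in platelet and myeloid responses.

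The labels could not be checked with Klf7 itself. Its only probe set read 6.59 and 6.18 (log2 intensity) in knockout against 5.95 and 6.10 in wild type, and a probe set outside the deleted part would check nothing. Xist, the RNA of the inactive X chromosome, separated the same arrays, at 11.76 and 11.58 in knockout against 5.24 and 4.80 in wild type. The Y-linked gene Eif2s3y went the other way, at 2.86 and 2.94 in knockout against 6.85 and 8.11 in wild type. Y-linked Uty and Kdm5d differed by -2.88 ± 0.20 and -1.63 ± 0.21 (moderated SE), while Usp9y and Zfy1, both dim, overlapped. Genotype and the sex of the cells therefore cannot be told apart for any gene compared here, Prkch included. Median intensity per array ran from 51.01 to 52.26.

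The largest difference in the family belonged to Prkch, which encodes the calcium-independent isoform eta, and lay on the lower side in knockout at both of its probe sets. Prkca, Prkcb and the first Prkcz probe set were also lower in both knockout arrays than in either wild-type array, by much smaller amounts. The groups overlapped for Prkcd, Prkce, Prkcq, Prkci and the second Prkcz probe set. In all, 5 of 10 probe sets, from 4 of 8 genes, lay lower in knockout without overlap and 0 lay higher. Over all 28939 probe sets tested, 19.6% lay lower without overlap and 13.9% higher. These shares were 17% and 17.1% after cyclic loess and 17.6% and 16.2% after a further quantile normalization, with the count of 5 probe sets of the family lower and 0 higher as before. The family was picked because of the Prkch difference in this comparison, so its differences are descriptions and no test is drawn from them. Without the 2 Prkch probe sets the count was 3 of 8. The median difference over the 10 probe sets was -0.29, and over all probe sets -0.03. Limma called 0 of the 10 at an adjusted p under 0.05, and 3 had an unadjusted p under 0.05. Of all probe sets, 0.00346%, which is Xist alone, were called and 5.01% had an unadjusted p under 0.05. With 2 arrays per group the test finds little: the Y-linked gene Eif2s3y, at -4.58 ± 0.44, was not called (limma adjusted p = 0.648). A missing call therefore does not show a lack of change, here or in the lists below. Prkch was the only isoform at least 2-fold apart without overlap, through 1 probe set, where 0.836% of all probe sets were at least that much lower in knockout. In sorted cells measured in bulk, fewer cells that express a gene and less RNA per cell cannot be told apart.

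**Figure D1:**
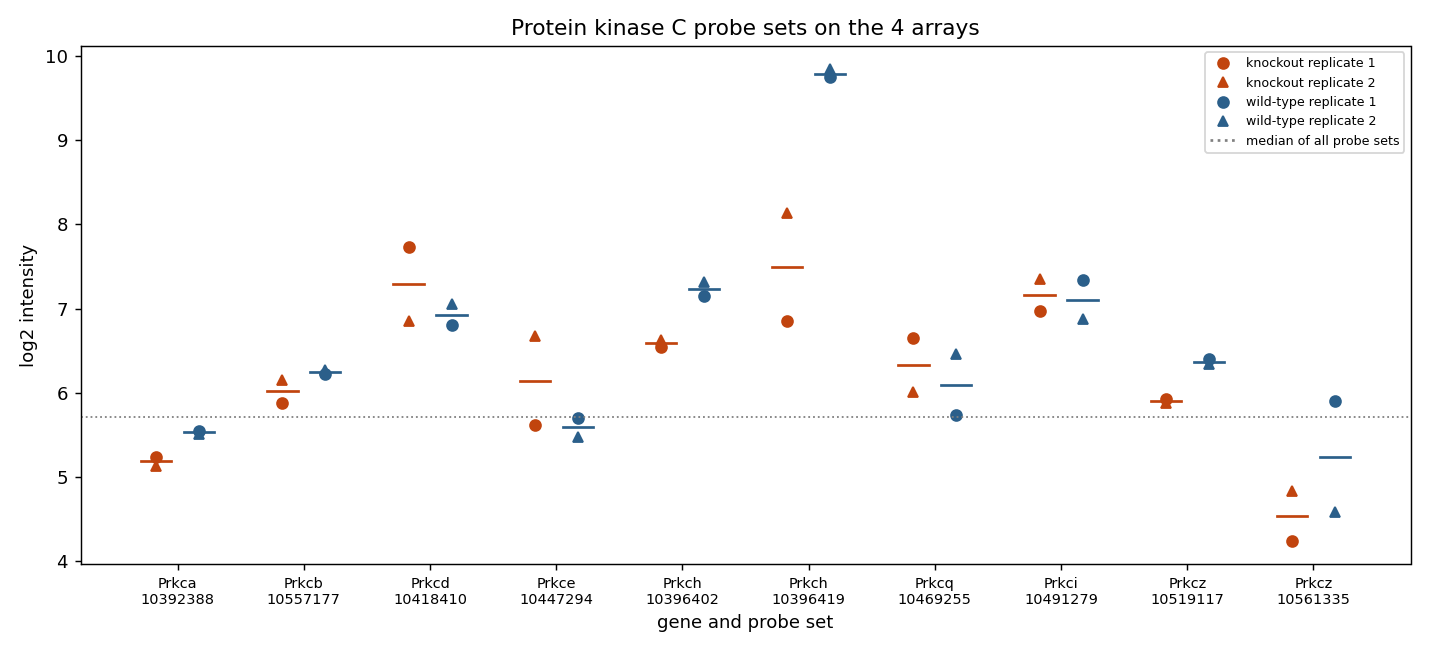
Log2 intensity of each protein kinase C probe set (x axis, gene and probe set) on the 4 arrays (orange, knockout; blue, wild type; circles, replicate 1; triangles, replicate 2; short lines, group means of 2 arrays; dotted line, the median of all probe sets at 5.71). Prkch probe set 10396419 shows the widest separation, with 6.85 and 8.13 in knockout below 9.75 and 9.84 in wild type.

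KLF proteins bind CACCC boxes and GC-rich boxes, and promoters are therefore shown for the isoforms whose groups did not overlap and for which the RefSeq promoter table (GRCm38.p6) has an entry. Of the 8 isoforms 6 matched; Prkch and Prkce did not. Each window runs from 250 bases before to 50 after the annotated start and is written 5′ to 3′ on the gene's strand, with CACCC and GGGCGG, or their reverse complements GGGTG and CCGCCC, in capitals. Prkca lies at chr11:108343839-108344138 (minus strand), Prkcb at chr7:122288875-122289174 (plus strand) and the first Prkcz start at chr4:155361379-155361678 (minus strand).
Prkca: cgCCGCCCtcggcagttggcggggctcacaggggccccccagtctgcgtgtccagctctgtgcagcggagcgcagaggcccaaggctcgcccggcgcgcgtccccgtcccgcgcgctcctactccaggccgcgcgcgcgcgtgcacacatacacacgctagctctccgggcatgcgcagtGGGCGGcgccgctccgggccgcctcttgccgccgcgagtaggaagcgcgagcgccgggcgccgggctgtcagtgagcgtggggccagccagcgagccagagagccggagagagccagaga
Prkcb: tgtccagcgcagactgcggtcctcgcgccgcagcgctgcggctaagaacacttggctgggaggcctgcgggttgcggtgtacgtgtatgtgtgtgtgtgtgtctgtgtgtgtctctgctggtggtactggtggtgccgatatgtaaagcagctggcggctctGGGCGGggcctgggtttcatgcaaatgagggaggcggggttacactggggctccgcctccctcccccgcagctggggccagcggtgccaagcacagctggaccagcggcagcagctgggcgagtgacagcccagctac
Prkcz: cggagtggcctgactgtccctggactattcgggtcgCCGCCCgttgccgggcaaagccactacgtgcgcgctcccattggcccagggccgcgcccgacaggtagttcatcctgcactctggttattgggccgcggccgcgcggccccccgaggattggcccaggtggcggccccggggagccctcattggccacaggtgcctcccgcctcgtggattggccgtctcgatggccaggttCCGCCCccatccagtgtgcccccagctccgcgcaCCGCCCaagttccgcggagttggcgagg
The Prkca window held 2 matches to GGGCGG, that of Prkcb 1 and that of Prkcz 3, and CACCC matched in 0 of these 3 windows. That 0 depends on the Prkcz start shown, since the other starts of Prkcz held 2 CACCC matches and 1. No CACCC match overlapped a GGGCGG match in any window of the family. The first Prkcd start, an isoform whose groups overlapped, held 4 matches to GGGCGG and 1 to CACCC. Over the 9 annotated starts of the 6 genes, 7 held GGGCGG and 6 held CACCC. Of all 32851 windows listed, 35.7% held GGGCGG and 57.5% held CACCC. G and C made up 75.3% of the Prkca window, 65.3% of that of Prkcb and 71% of that of Prkcz, and from 51.3% (second Prkcd start) to 75.3% over the 9 starts, against a median of 52.7% over the table. A match describes letters in a window and shows no binding.

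Among conventional isoforms, Prkca, which encodes the alpha isoform, read 5.24 and 5.13 (log2) in knockout against 5.55 and 5.51 in wild type. Both knockout arrays were below both wild-type arrays, although the signal was under the median of all probe sets on every array. The difference was -0.34 ± 0.16 (moderated SE, n = 2 per group), a wild-type level 1.27-fold that of knockout. With 32 added to the intensities, which damps dim probe sets, it was -0.19. Prkcb, whose beta isoform acts downstream of the B cell receptor, read 5.88 and 6.15 in knockout against 6.22 and 6.27 in wild type. Its groups were separate by only 0.07, less than the 0.27 between the knockout arrays, and the difference was -0.23 ± 0.18. Without knockout replicate 1 it was -0.10.

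Among calcium-independent isoforms, the brighter Prkch probe set (10396419) read 6.85 and 8.13 in knockout against 9.75 and 9.84 in wild type. The wild-type arrays lay close together, the knockout arrays were 1.27 apart, and the nearest arrays of the groups were 1.62 apart. The difference was -2.30 ± 0.45 (SE, n = 2 per group), a wild-type level 4.92-fold that of knockout. On the linear scale these are intensities of 116 and 280 against 858 and 915. Knockout replicate 1 and replicate 2 gave unlike sizes, since the difference was -1.66 without replicate 1 and -2.94 without replicate 2. The spread within groups, an SD of 0.64, exceeded that of 94.4% of all probe sets, where the median SD was 0.19.

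The second Prkch probe set (10396402) read 6.54 and 6.63 in knockout against 7.15 and 7.31 in wild type. Replicates lay within 0.16 of each other, and the groups were separated by 0.52. Its difference was -0.64 ± 0.16, a wild-type level 1.56-fold that of knockout, and ran from -0.72 to -0.56 with each array left out. The 2 probe sets share the direction and differ in size. The brighter stood above the other by 0.31 and 1.50 in knockout and by 2.60 and 2.53 in wild type, so that the gap was smaller in knockout by 1.66 on the log2 scale (SD within groups 0.59). Over the 777 genes with exactly 2 probe sets, the differences of the pair lay a median of 0.21 apart and 90% of genes were within 0.80. The 1.66 of Prkch was at percentile 98.6. Since Prkch was picked for a large difference, which favours a wide gap, this percentile is only a description. The mean of both probe sets differed by -1.47.

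The platform annotation lists unlike numbers of transcript records for those probe sets. The dimmer probe set, 10396402, is listed with 4 records, of which 1 is a RefSeq mRNA. The brighter, 10396419, is listed with 1 record, which is not a RefSeq mRNA. Whether that record is also among the 4 was not compared. In the order of probe set IDs both lie between Slc38a6 and Hif1a, which, like Prkch, are assigned to chromosome 12. The 6 nearest named neighbours in that order, chosen by position, included Hif1a, the oxygen-sensing transcription factor gene, at 0.18 ± 0.50, Snapc1 at 0.96 ± 0.27 and Mnat1 at -0.54 ± 0.31. Of these 6, 1 lay lower in knockout without overlap (Mnat1) and 1 higher (Snapc1), where 19.6% and 13.9% of all probe sets did so.

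Prkcd, which encodes the delta isoform, read 7.73 and 6.85 in knockout against 6.80 and 7.05 in wild type. Only knockout replicate 1 stood above the other arrays. The difference of 0.37 ± 0.33 was -0.07 without that array. Prkce, which encodes epsilon, read 5.61 and 6.67 in knockout against 5.70 and 5.47 in wild type. Here knockout replicate 2 alone was high, and the difference of 0.55 ± 0.39 was 0.02 without it. Prkcq, which encodes the theta isoform of T cell receptor signalling, read 6.65 and 6.01 in knockout against 5.73 and 6.46 in wild type. Its replicates differed by 0.64 and 0.73, more than the difference between groups of 0.24 ± 0.35, which turned to -0.13 without wild-type replicate 1 and to -0.08 without knockout replicate 1.

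**Figure D2:**
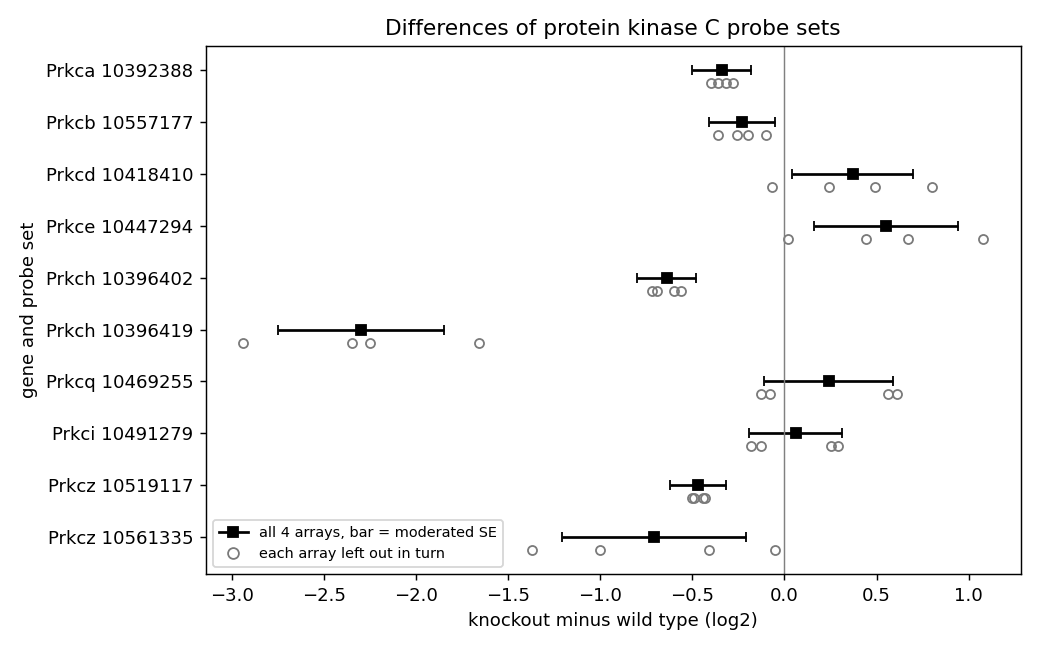
Difference between knockout and wild type (x axis, log2) for each protein kinase C probe set (y axis), with squares for all 4 arrays, bars for the moderated SE, and open circles for each array left out in turn. Open circles stay below 0 for Prkca, Prkcb, Prkch and Prkcz and above 0 for Prkce, and fall on both sides of 0 for Prkcd, Prkcq and Prkci.

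Among atypical isoforms, Prkci, which encodes the iota isoform of the cell polarity complex, read 6.97 and 7.35 in knockout against 7.34 and 6.87 in wild type. The groups covered nearly the same range, with a difference of 0.06 ± 0.25. Prkcz, which encodes zeta, had 2 probe sets. The first (10519117) read 5.93 and 5.88 in knockout against 6.40 and 6.34 in wild type. Replicates lay within 0.07, the groups were 0.41 apart at their nearest arrays, and the difference was -0.47 ± 0.15. The second (10561335) read 4.24 and 4.83 in knockout against 5.90 and 4.58 in wild type, where wild-type replicate 1 alone was high. Its difference of -0.71 ± 0.50 was -0.05 without that array. In ID order this second probe set lies between Map3k10 and Zfp974, which are assigned to chromosome 7, whereas Prkcz and the neighbours of its first probe set, Ski and Gabrd, are assigned to chromosome 4. Where its probes map was not checked.

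Agreement between replicates, which the choice of the family did not use, varied among isoforms. The first Prkcz probe set and Prkca had SDs within groups of 0.04 and 0.06, smaller than in all but 4.03% and 8.84% of probe sets. Prkcd, Prkce and Prkcq had SDs of 0.45, 0.54 and 0.49, at percentiles 87.2, 91.5 and 89. The second Prkcz probe set had the widest, 0.72. Of the 10 probe sets, 8 had a mean above the median of all probe sets, the exceptions being Prkca and the second Prkcz probe set. These are brightnesses of different probes and give no order of abundance between isoforms.

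**Figure D3:**
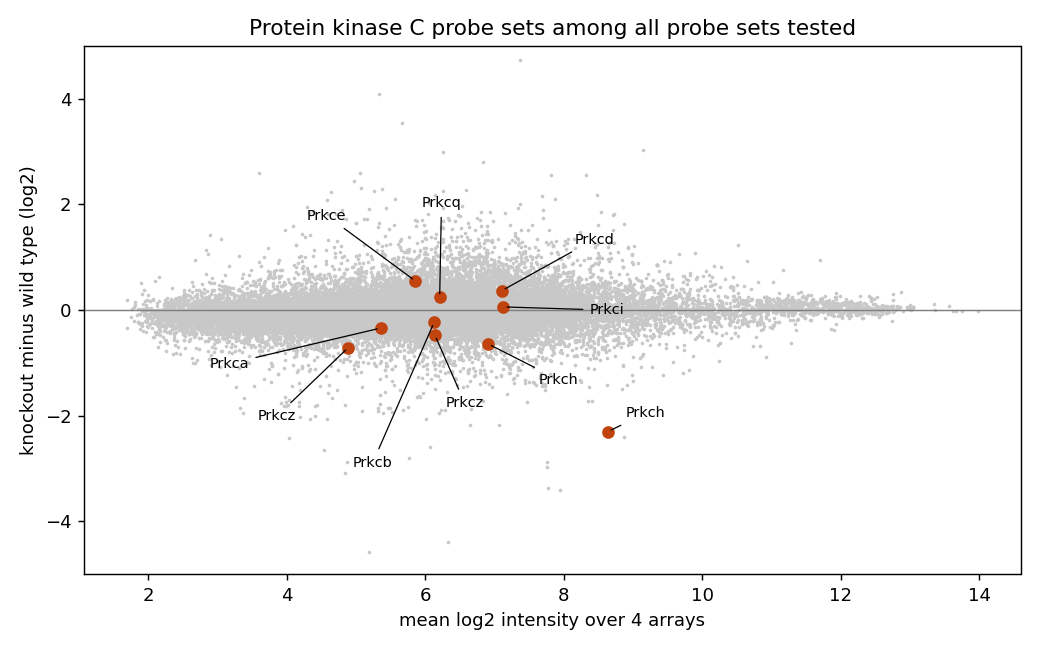
Difference between knockout and wild type (y axis, log2) against mean log2 intensity over the 4 arrays (x axis) for all 28939 probe sets tested (grey) and the 10 protein kinase C probe sets (orange, named). The brighter Prkch probe set lies at -2.30, away from the other 9, which lie between -0.71 and 0.55; 1 grey probe set (Xist) lies beyond the axis limit of 5.

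The genes nearest to the brighter Prkch probe set in profile were ranked by the root mean square distance between log2 values centred on each gene's own mean over the 4 arrays, among 10336 genes brighter than the median probe set. The nearest were Acadl, a fatty acid oxidation enzyme gene, at a distance of 0.461, Nynrin at 0.478, the Y-linked histone demethylase gene Kdm5d at 0.481, the insulin receptor gene Insr at 0.558 and the ubiquitin-conjugating enzyme gene Ube2h at 0.595. Acadl read 5.67 and 6.76 in knockout against 7.70 and 7.54 in wild type, with knockout replicate 1 lowest as in Prkch. Acadl is assigned to chromosome 1, and in the order of probe set IDs it (10355246) lies near Klf7 itself (10355141). Whether that position bears on its difference was not tested. Differences of the 5 genes ran from -2.18 ± 0.71 (Nynrin) to -1.41 ± 0.24 (Insr). With all probe sets of the gene averaged, Nynrin stood at -0.67 and Insr at -0.51. The other Prkch probe set lay at 0.929, which would rank 159 among them. With 4 arrays many genes share such a shape.

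Genes that act around protein kinase C were read from 8 lists by role, with 84 of 92 genes measured, each at its brightest probe set. Limma called 0 of 84 in either direction (smallest adjusted p 0.945, with 2 at an unadjusted p under 0.05). As with Eif2s3y, a missing call does not show a lack of change. Without overlap were 20 lower and 14 higher in knockout, or 40.5% against 33.6% of all probe sets. Shares over all probe sets, here and beside the lists below, are not limited to the brightest probe set of each gene. The median difference was -0.02, and 0 of 84 were at least 2-fold apart without overlap.

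Upstream, knockout was lower for 11 of 14 phospholipase C genes and did not overlap for 5 of these, with a median of -0.14, where 19.6% of all probe sets lay lower without overlap. Plcg1, the phospholipase C of receptor tyrosine kinase signalling, read 6.79 and 6.84 in knockout against 7.20 and 7.22 in wild type, a difference of -0.39 ± 0.15 (limma adjusted p = 0.945). Plcb3, which G proteins activate, differed by -0.23 ± 0.18, and by -0.10 without knockout replicate 1. Among 8 diacylglycerol kinases, which remove diacylglycerol, 5 were higher and 3 lower, with Dgkz at 0.34 ± 0.18 and Dgka at -0.28 ± 0.31, which was 0.09 without knockout replicate 1. The other probe set of Dgkz brought the gene's mean to 0.12, and Dgkz was 0.20 without knockout replicate 2. Of the 10 other diacylglycerol receptors, 6 were higher and 4 lower, with Rasgrp4, a Ras exchange factor gene, at -0.22 ± 0.17 and Unc13a at -0.54 ± 0.48. The 3 probe sets of Unc13a ran from -0.54 to 0.25, with a mean of -0.14, and the one used was 0.03 without wild-type replicate 1; Rasgrp4 was -0.13 without wild-type replicate 2. All 5 measured relatives (protein kinase D and N genes) were lower, 2 without overlap (against the same 19.6%), with a median of -0.39. Prkd2, a protein kinase D gene, read 6.08 and 6.70 in knockout against 6.82 and 6.83 in wild type, a difference of -0.43 ± 0.26 that was -0.12 without knockout replicate 1. Pkn2 differed by -0.39 ± 0.27, and by -0.08 without wild-type replicate 1.

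Downstream and at the kinases themselves, directions were mixed. Of 10 genes of maturation and shutdown, 8 were higher, with Rictor, a subunit of the mTOR complex that phosphorylates protein kinase C, at 0.28 ± 0.17 and the kinase chaperone gene Cdc37 at -0.57 ± 0.27. Without knockout replicate 1 Rictor was 0.18, and without knockout replicate 2 Cdc37 was -0.24. Of 13 scaffold and partner genes, 9 were lower, with Pick1, which binds the alpha isoform, at -0.54 ± 0.30 and Sqstm1, a partner of atypical isoforms, at -0.28 ± 0.32. Pick1 was -0.16 without wild-type replicate 2 and Sqstm1 was 0.15 without knockout replicate 1. Of 17 substrates, 10 were higher and 7 lower. Add3, an adducin gene of the membrane skeleton, read 7.40 and 7.42 in knockout against 6.88 and 6.39 in wild type, a difference of 0.78 ± 0.22 (limma adjusted p = 0.945). Marcksl1, of the MARCKS family of substrates, read 9.06 and 7.84 in knockout against a wild-type mean of 9.10, a difference of -0.66 ± 0.43 that was -0.05 without knockout replicate 2. Of 7 genes of the CARD-BCL10-MALT1 complex and its regulators, 3 were higher and 4 lower, with Tnfaip3 at -0.52 ± 0.27 and Traf6 at -0.51 ± 0.35. Tnfaip3 was -0.20 without wild-type replicate 1 and Traf6 was -0.03 without knockout replicate 1. None of these genes passed.

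**Figure D4:**
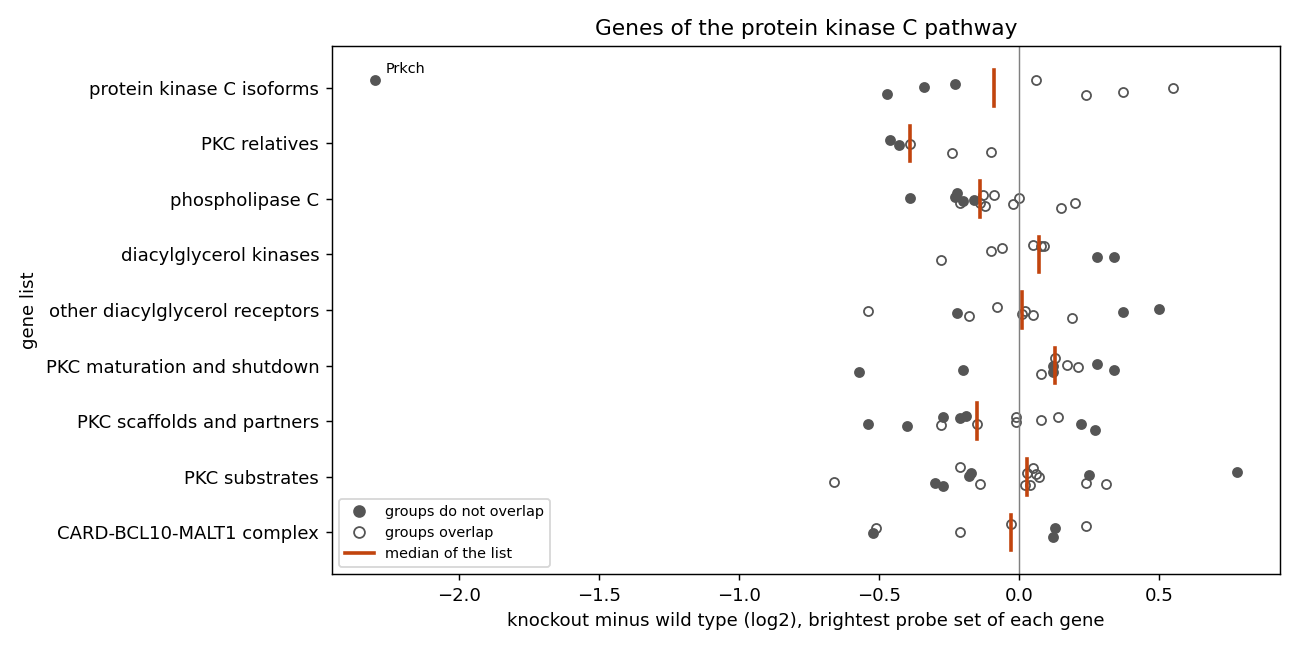
Difference between knockout and wild type (x axis, log2) for the brightest probe set of each gene in the protein kinase C family and the 8 lists around it (y axis); filled points are genes whose groups do not overlap, open points those that overlap, and orange lines are list medians. List medians lie between -0.39 and 0.13, and Prkch, at -2.30, lies apart from every other point.

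Markers of other cells were read beside Prkch, because T and B cells also express isoforms of this family. Of 18 T and NK cell markers, 14 were lower in knockout, 6 without overlap (19.6% of all probe sets), with a median of -0.14. Their summed intensity was 1038 and 1138 in knockout against 949 and 1156 in wild type, so these ranges overlapped. Nkg7 and Lat, which differed by 0.23 ± 0.31 and 0.62 ± 0.22, weigh on that sum. Without them the other 16 markers summed to 590 and 596 in knockout against 641 and 665 in wild type, without overlap. This alternative was chosen after seeing the data and leaves out markers that were higher in knockout, so no conclusion is drawn from it. The T cell receptor chains Cd3d and Cd3g read between 4.28 and 5.13 on all arrays, below the median probe set, and Cd3e between 5.85 and 6.01. For 12 B cell markers, 6 were higher and 6 lower, with sums of 829 and 458 in knockout against 517 and 496 in wild type. The high sum of knockout replicate 1 came with Vpreb1, a pre-B cell receptor gene, which read 8.59 there and between 5.35 and 5.57 elsewhere. The granulocyte and monocyte list (14 markers, 9 lower) summed to 4254 and 2249 in knockout against 3300 and 3113 in wild type. The unlike knockout sums came largely with S100a8, at 9.59 and 7.54 in knockout, and S100a9, at 10.40 and 8.02. Of the 14, 3 lay lower without overlap (19.6% of all probe sets) and 0 higher. The neutrophil elastase gene Elane differed by -1.07 ± 0.40, while 5 markers were higher, among them Camp at 0.52 ± 0.60 and Ngp at 0.49 ± 0.37. Lists for mast cells and basophils (9 measured), erythroid cells (7) and megakaryocytes and platelets (7) had medians of -0.03, 0.04 and 0.06. The platelet chemokine gene Ppbp, on average dimmer than the median probe set, differed by 1.24 ± 0.33, and Gp5 by -0.52 ± 0.33. Of the 7 megakaryocyte and platelet markers, 2 were higher without overlap (13.9% of all probe sets) and 0 lower. The 2 were Ppbp and Itga2b, the latter at 0.14 ± 0.16. Most measured genes of the gate and stem cell list lay the other way from Prkch. Of 10, 8 were higher in knockout, 7 without overlap (13.9% of all probe sets). Sums of the list were 5175 and 5254 in knockout against 4076 and 3766 in wild type. The stem cell genes Procr, Tek and Slamf1 were nearly unchanged, at 0.01 ± 0.16, -0.04 ± 0.19 and 0.08 ± 0.15. Slamf1, a dim probe set, still counts among the 7. Ly6a, the Sca-1 gene of the gate, was not among the 10 measured. Kit, an antigen of the sort, differed by 0.39 ± 0.17 and Cd34, a progenitor surface antigen, by 0.62 ± 0.15. The rest of the 7 were Flt3 at 0.48 ± 0.19, Cd48 at 0.50 ± 0.23, Hlf at 0.40 ± 0.22 and Meis1 at 0.29 ± 0.21. Mecom, a stem cell transcription factor gene, lay lower at -0.71 ± 0.25, with 0.54 at its other probe set. The list mixes gate and progenitor antigens with stem cell genes, so its counts and sums do not describe stem cell genes alone. Limma called 0 genes of these lists, and at an unadjusted p under 0.05 were 2 of the gate and stem cell list and 1 each of the T and NK cell, granulocyte and monocyte, and megakaryocyte lists. The part of these markers in the Prkch difference was not tested.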

How the data were processed

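RNA of KLS cells was amplified with a NuGen Ovation kit and carried a biotin label, per the labels' protocols. The authors deposited an intensity for each probe set on each array. The submitters' processing notes name RMA and Affymetrix Expression Console and give no version. Values ran from 2.70 to 17720.8, so they were taken as linear and converted to log2. The first 6615 of 35554 probe sets, presumed controls, were not tested. Of the 28939 tested, 21789 carry a single symbol in the platform annotation of 2016. Knockout minus wild type was fitted for all of them with limma 3.58.1 under R 4.3.3 (moderated variances, 2 residual degrees of freedom, two-sided, p adjusted after Benjamini-Hochberg, threshold 0.05). On simulated data the fit was checked only for a mean estimate close to the planted difference. The error rate of its calls was not checked.

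Members and lists were chosen with earlier results of these data known. Named were every member probe set, up to 2 genes per list (those past the threshold, otherwise the largest absolute differences above the median level), and the 5 nearest profiles. Other genes were named after their values were seen. Alternatives were cyclic loess, a second quantile step, an added 32 before log2, a limit on dim probe sets, a variance trend, a replicate block, leaving out each array, averaging a gene's probe sets, and a 2-fold limit. Protein sequences were not used here. The number of arrays limits the precision.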

Additional observations from a re-analysis of the deposited data

How the results depend on the processing

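The count of member probe sets lower in knockout without overlap, 5 of 10, was 5 with cyclic loess and with a second quantile step. An added 32 and a variance trend keep the order of the arrays, so the count of 5 was fixed there. On brighter probe sets the count was 4 of 8, where only the set of probe sets changes. With each array left out it was 5 to 6 and could not have fallen, since separate groups stay separate. It was 1 at a limit of 2-fold and 3 without both Prkch probe sets, an alternative chosen after seeing the data. The gap between the Prkch probe sets differed by -1.66 in knockout minus wild type, and this difference ran from -2.25 to -1.06 when single arrays were left out. The limma count over all probe sets, 1, became 0 with a second quantile step, an added 32, a variance trend and the replicate block. It was 0 to 0 with single arrays left out, where the lone sample is given the spread of the remaining group. The count over pathway genes was 0 in each alternative. Equal replicate numbers are not said to mark shared mice, and their deviations correlated at 0.0434 over probe sets. The replicate block leaves the values as they are, so the member count of 5 was fixed there too. Directions turned without single arrays for Prkcd (-0.07 to 0.80), Prkci (-0.18 to 0.29), Prkcq (-0.13 to 0.61), Dgka (-0.65 to 0.09), Unc13a (-1.10 to 0.03) and Sqstm1 (-0.71 to 0.15). The cause of these changes was not tested. No detection calls were used, which limits what can be said of dim probe sets.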
